A study of Mus musculus with 9 samples.

Results

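The genes of the proteasome were examined in right ventricular myocardium of mice with a pulmonary artery band and of sham-operated mice. Members were the genes whose symbol starts with Psm, a letter from a to e and a number, which gave 44 of the 18193 genes measured. Of these, 42 encode subunits, assembly chaperones or activators of the proteasome, and 2, Psmc3ip and Psme3ip1, encode proteins that are not part of the particle and are described apart. The 42 comprised 8 genes of the alpha ring, 7 of the constitutive beta ring, 3 of the immunoproteasome, 1 of the thymoproteasome, 6 of the ATPase ring, 11 non-ATPase subunits of the regulatory particle, 3 chaperones and 3 activators. The probe set of Psme2 also names Psme2b and was not used.

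The groups were 5 arrays of pulmonary banding and 4 arrays of sham operation. Both were male C57BL6J mice aged 6 to 8 weeks. Banding narrows the pulmonary artery, so that the right ventricle ejects against a raised pressure. Total RNA of the ventricle was hybridised to one-colour Affymetrix arrays, and the files give a log2 expression value for each probe set. No label gives the time since surgery. Whether each numbered replicate is an animal of its own is not stated either, so p-values measure the spread between these samples.

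The proteasome degrades proteins tagged with ubiquitin. Its core is a barrel of stacked alpha and beta rings, and the cutting sites lie on the inner face of the beta rings. A regulatory particle sits on the end of the barrel, where it binds the ubiquitin chain, removes it and unfolds the protein with a ring of ATPases. In immune cells, and in other cells exposed to interferon gamma, the inducible subunits Psmb8, Psmb9 and Psmb10 take the places of Psmb5, Psmb6 and Psmb7, and the resulting immunoproteasome makes peptides for MHC class I molecules. In heart muscle the proteasome turns over sarcomere and other cytosolic proteins.

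Array medians lay between 3.23 and 3.31, and values ran from a floor of 2.198 to 16.43. A gene was called dim when its group mean lay under 4.198. All 10 cardiomyocyte markers lay above the dim level in both groups. Transcripts of 12 hepatocyte markers were present on the sham arrays. The log2 of their summed linear level was 6.40 to 9.57 on the banding arrays and 13.26 to 17.00 on the sham arrays, with sham replicate 4 the highest. Every sham array thus lay above every banding array, so the hepatocyte transcripts cannot be told apart from the group. This holds with or without sham replicate 4. The count of lower members is also given without that array.

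Of the 42 proteasome genes, 26 were lower in banding, 0 were higher and 16 did not pass an adjusted p of 0.05 in limma. At an unadjusted p under 0.05, 27 were lower and 1, Psmb8, was higher, but the share of all genes at that p was not counted. The background for the counts at the adjusted p is that 38.4% of all genes passed it, 20.0% lower and 18.4% higher. Among genes not dim in both groups these shares were 32.2% lower and 29.8% higher, beside 26 of 40 and 0 of 40 proteasome genes. In all 26 genes every banding array lay below every sham array, a separation found in this direction in 19.3% of all genes, in the other in 17.4% and in either in 36.7%. The 26 had already been called on the same arrays, so their separation adds no support to the call. Over all genes, 3633 were called lower and 3520 were separated in this direction. The median difference over the 42 genes was -0.30 log2 units, against 0 over all genes, 7180 of which were dim in both groups. Among genes with a mean over 10 log2 units it was -0.41 for the proteasome genes and -0.097 for all. The falls were small, between -0.15 and -1.08 log2 units with a median of -0.45, and 2 of them reached 1 log2 unit. Proteasome genes are bright, and bright genes were called more often. Among genes with a mean over 10 log2 units, 24 of 31 proteasome genes were lower (77.4%), against 42.5% of all 2416 such genes, while 0 were higher, against 31.1%. The count of lower members was 26 without sham replicate 4, 26 with an index of hepatocyte markers as a covariate, and 25 without sham replicate 4 and banding replicate 5 together. The index was 1 on sham replicate 4, 0.062 to 0.165 on the other sham arrays and at most 0.0044 on banding arrays. It therefore marks mainly sham replicate 4. None of these fits can remove a hepatocyte difference that all sham arrays share.

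**Figure D1:**
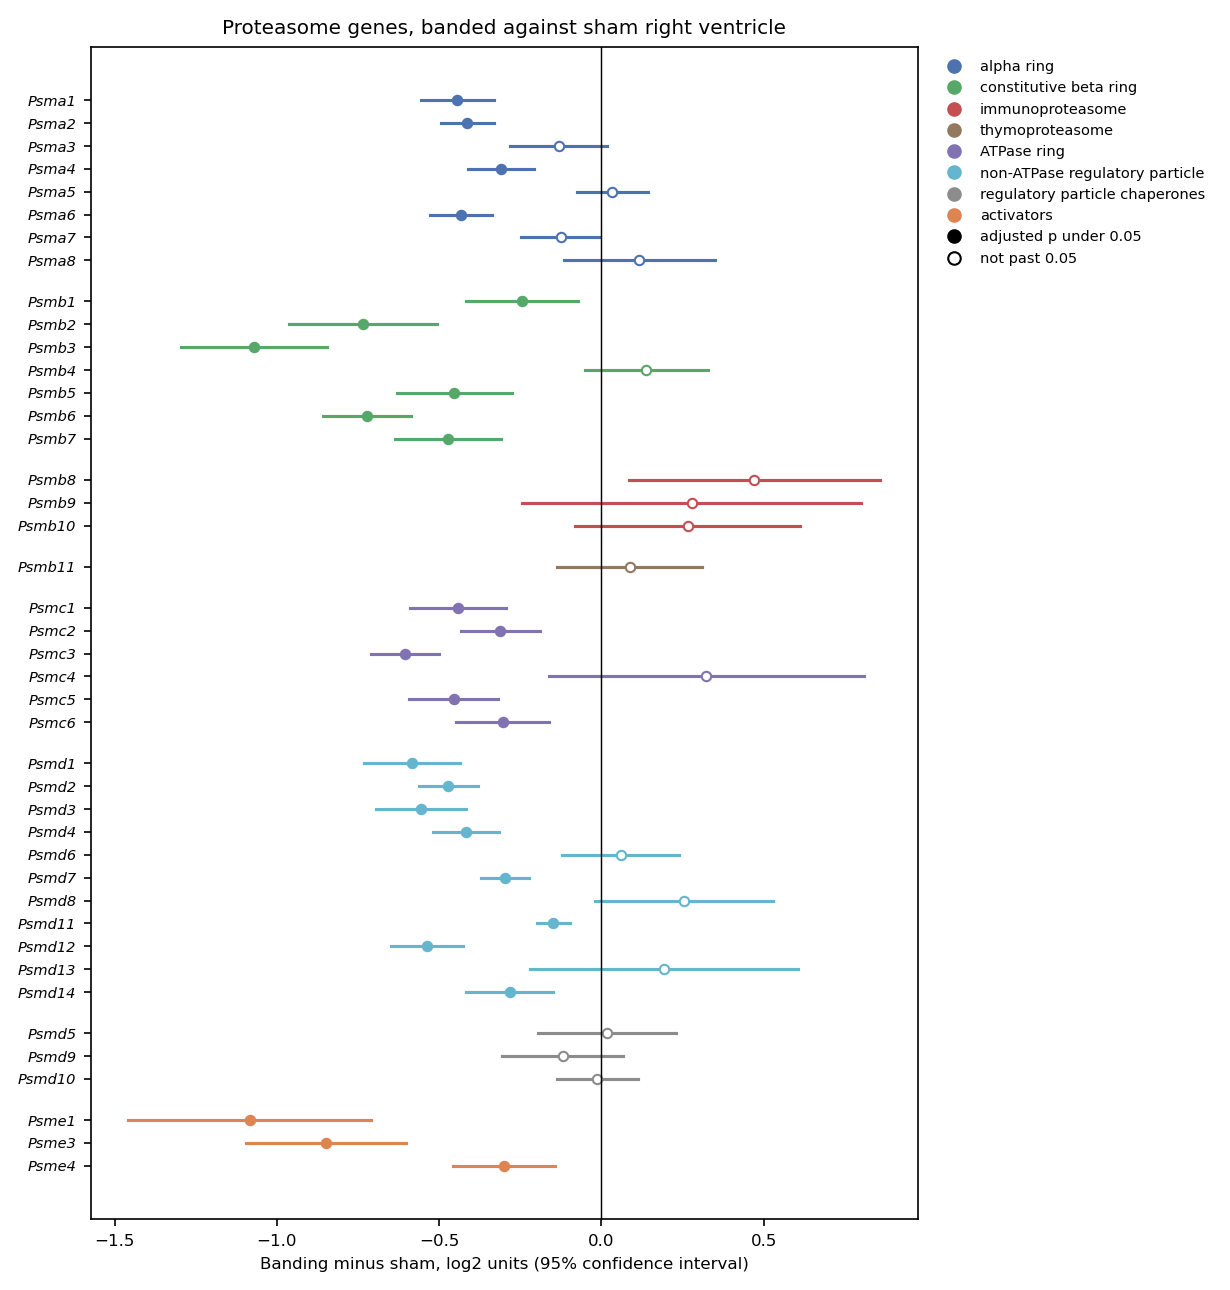
Difference between banding and sham for the 42 proteasome genes, in log2 units with 95% confidence intervals that are not adjusted for the number of genes, coloured by the place of the subunit in the particle. Filled points passed an adjusted p of 0.05, and all 26 of them lie left of 0, while the 3 immunoproteasome genes lie right of 0 with open points.

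Cardiomyocyte markers moved in the same direction. There, 6 of 10 fell and 4 did not pass. As background, 20.0% of all genes were lower, 32.2% of genes not dim in both groups and 42.5% of genes with a mean over 10 log2 units. The median difference of the cardiomyocyte markers was -0.25, and the log2 of their summed level was 18.62 to 18.83 in banding and 18.90 to 18.97 in sham. In RNA from whole tissue, fewer cells of a type and less RNA per cell cannot be told apart. The part of cell composition in the proteasome falls was not tested.

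The beta ring carries the proteolytic sites, and 6 of its 7 constitutive genes were lower in banding. Psmb6 encodes the caspase-like subunit. It stood at 11.86, 11.73, 11.78, 11.86 and 11.91 on the banding arrays, against 12.43, 12.66, 12.62 and 12.49 on the sham arrays. The groups did not overlap, and the difference was -0.72 ± 0.06 (SE, adjusted p = 9.64e-05), or 1.65-fold lower. Psmb5, the chymotrypsin-like subunit, had 11.43, 11.25, 11.22, 11.47 and 11.45 in banding, and 11.75, 11.81, 11.98 and 11.74 in sham. Its fall of -0.45 ± 0.08 (adjusted p = 0.00215) was 1.37-fold. Psmb7, the trypsin-like subunit, had 12.37, 12.07, 12.26, 12.27 and 12.42 in banding, and 12.77, 12.74, 12.82 and 12.67 in sham, a difference of -0.47 ± 0.07 (adjusted p = 0.00124). All 3 genes of the constitutive cutting sites were thus lower, with no overlap between groups.

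The other constitutive beta subunits have no cutting site and hold the ring together. Psmb3 had the largest fall in the barrel, with 11.18, 10.80, 10.87, 10.90 and 10.98 in banding, and 11.91, 11.93, 12.24 and 11.99 in sham. It was 2.10-fold lower (-1.07 ± 0.10, adjusted p = 0.000145). A second probe set of Psmb3 gave -0.57 (adjusted p over all probe sets = 0.000332), so the size of the fall, but not its direction, depended on the probe set. Psmb2 had 10.40, 10.10, 10.06, 10.05 and 10.10 in banding, and 10.84, 10.88, 11.08 and 10.71 in sham, a difference of -0.74 ± 0.10 (adjusted p = 0.000734). Banding replicate 1 was the highest of its group in both genes and still lay below every sham array. Psmb1 was lower by the smallest margin (-0.24 ± 0.07, adjusted p = 0.0337). Its call was lost without banding replicate 2, 3 or 5 or sham replicate 2 or 3, with adjusted p up to 0.0822 and differences from -0.28 to -0.18 over single arrays left out. Its other probe sets were dim in both groups. Psmb4 did not pass on its brightest probe set, with 13.09, 13.19, 13.24, 13.38 and 13.32 in banding, and 13.22, 13.20, 12.93 and 13.07 in sham (0.14 ± 0.08, adjusted p = 0.247). Its second probe set gave -0.28 (adjusted p over all probe sets = 0.000664), so the probe sets of Psmb4 disagree in direction. Psmb11, the thymus-specific subunit, was dim in both groups, between 2.20 and 2.63 in banding and at 2.20 in sham.

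The alpha rings close the ends of the barrel and form its gate. Of 8 genes, 4 were lower and 4 did not pass. Psma2 had 12.11, 12.06, 12.07, 12.14 and 12.16 in banding, and 12.47, 12.59, 12.56 and 12.47 in sham, a difference of -0.41 ± 0.03 (adjusted p = 0.000114). Psma6 had 12.56, 12.56, 12.58, 12.65 and 12.65 in banding, and 13.14, 13.02, 13.02 and 12.95 in sham (-0.43 ± 0.04, adjusted p = 0.000179). Psma1 had 12.45, 12.28, 12.40, 12.23 and 12.33 in banding, and 12.85, 12.76, 12.79 and 12.73 in sham (-0.44 ± 0.05, adjusted p = 0.00031). In these genes every banding array lay below every sham array. Psma4 was lower too (-0.31 ± 0.04, adjusted p = 0.000955). Psma5 had the largest p of the ring, with 12.03, 12.05, 11.96, 12.19 and 12.14 in banding, and 12.01, 12.06, 12.02 and 12.08 in sham, which overlap (0.03 ± 0.05, adjusted p = 0.656). Psma3 (-0.13 ± 0.06, adjusted p = 0.163) and Psma7 (-0.13 ± 0.05, adjusted p = 0.104) did not pass. Psma7 passed without banding replicate 4 (-0.16, adjusted p = 0.0357), and its second probe set gave -0.25 (adjusted p over all probe sets = 0.0142). Over single arrays left out Psma7 ran from -0.16 to -0.09, with adjusted p up to 0.246. A dimmer second probe set of Psma3 went the other way, at 1.12 (adjusted p over all probe sets = 0.00628). Psma8, which replaces an alpha subunit in the testis, was dim in both groups.

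The ATPase ring of the regulatory particle unfolds substrates, and 5 of its 6 genes were lower. Psmc3 had 11.62, 11.50, 11.67, 11.72 and 11.63 in banding, and 12.19, 12.23, 12.29 and 12.21 in sham. It was 1.52-fold lower (-0.60 ± 0.04), with the smallest adjusted p of all 42 genes (7.13e-05). Psmc5 had 10.79, 10.56, 10.78, 10.65 and 10.74 in banding, and 11.16, 11.24, 11.04 and 11.19 in sham (-0.46 ± 0.06, adjusted p = 0.000659). Psmc1 had 10.96, 10.88, 10.80, 10.95 and 11.04 in banding, and 11.33, 11.42, 11.48 and 11.24 in sham (-0.44 ± 0.06, adjusted p = 0.00107). The groups did not overlap in any of these genes. Psmc2 (-0.31 ± 0.05, adjusted p = 0.00219) and Psmc6 (-0.30 ± 0.06, adjusted p = 0.00545) were lower as well. The mean of the probe sets of Psmc6 did not pass (-0.20, adjusted p = 0.125), and its probe set that is left when those ending in _x_at, _s_at or _a_at are dropped gave -0.05 (adjusted p = 0.989). Psmc4 was the exception, with 12.02, 12.16, 12.42, 12.82 and 12.83 in banding, and 12.38, 12.24, 11.85 and 12.04 in sham (0.32 ± 0.21, adjusted p = 0.298). Its banding arrays spread widely and overlapped the sham arrays.

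The remaining subunits of the regulatory particle bind ubiquitin, remove it or scaffold the particle. Of 11 genes, 8 were lower and 3 did not pass. Psmd2, a large scaffold subunit that docks ubiquitin shuttle proteins, had 11.31, 11.22, 11.30, 11.17 and 11.21 in banding, and 11.79, 11.70, 11.72 and 11.65 in sham (-0.47 ± 0.04, adjusted p = 0.000107). Psmd12, a lid subunit, had 11.74, 11.53, 11.61, 11.55 and 11.66 in banding, and 12.22, 12.12, 12.12 and 12.15 in sham (-0.54 ± 0.05, adjusted p = 0.000137). Psmd4, a receptor for ubiquitin chains, had 11.09, 10.96, 10.99, 11.05 and 11.01 in banding, and 11.48, 11.40, 11.53 and 11.34 in sham (-0.42 ± 0.04, adjusted p = 0.000263). In these 3 genes every banding array lay below every sham array. Psmd1, the other large scaffold subunit, fell by 0.58 ± 0.06 log2 units (adjusted p = 0.000304), and the lid gene Psmd3 by 0.56 ± 0.06 (adjusted p = 0.000282). Psmd14, the enzyme that removes the ubiquitin chain, was lower by a smaller margin (-0.28 ± 0.06, adjusted p = 0.0054), as was Psmd7, its partner (-0.30 ± 0.03, adjusted p = 0.000286). The brightest probe set of the lid gene Psmd11 gave -0.15 ± 0.02 (adjusted p = 0.00123), and its 3 other probe sets above the dim level gave -0.39, -0.44 and -0.72. The lid genes Psmd8 (0.25 ± 0.12, adjusted p = 0.141) and Psmd13 (0.19 ± 0.18, adjusted p = 0.465) did not pass. Without banding replicate 3, Psmd8 passed and was higher (0.34, adjusted p = 0.0215). Over single arrays left out it ran from 0.20 to 0.34, with adjusted p up to 0.259. Psmd6 had the largest p, with 12.85, 12.86, 12.86, 12.97 and 13.15 in banding, and 13.02, 12.86, 12.85 and 12.78 in sham (0.06 ± 0.08, adjusted p = 0.627). Its second probe set gave -0.44 (adjusted p over all probe sets = 0.000994), the same disagreement as in Psmb4. The 3 chaperones that build the regulatory particle did not pass, with Psmd5 at 0.02 ± 0.09, Psmd9 at -0.12 ± 0.08 and Psmd10 at -0.01 ± 0.05 log2 units. Their adjusted p-values were 0.32 for Psmd9 and 1 for Psmd5 and Psmd10.

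The size of several falls depended on the probe sets used. With the mean of all probe sets, dim ones included, Psmc1 was at -0.22, Psma1 at -0.21, Psmd2 at -0.24, Psmd4 at -0.23 and Psmd7 at -0.099 log2 units, and Psme3 at -0.51. The probe set of Psmc2 without such an ending gave -0.55. All of these stayed past the threshold and lower.

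**Figure D2:**
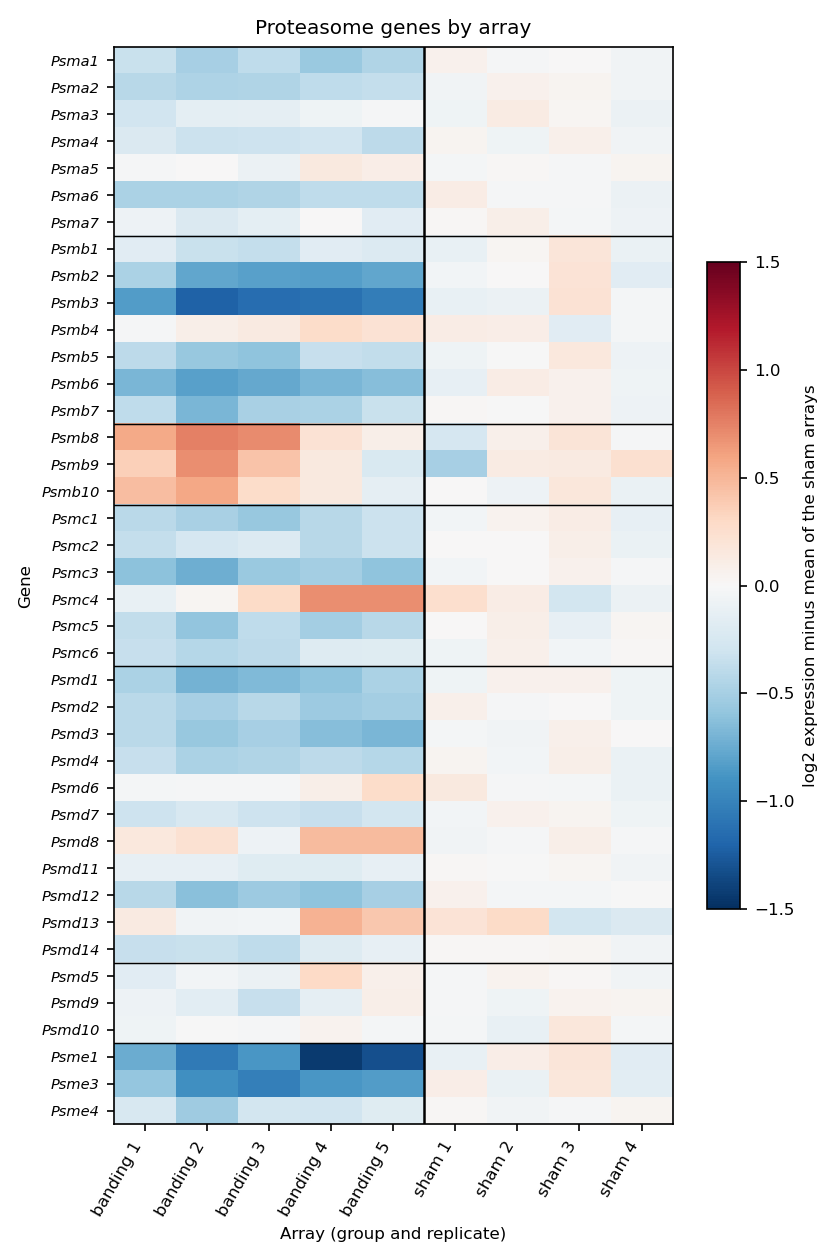
Expression of the 40 proteasome genes that were not dim in both groups, by array, as the log2 value minus the mean of the 4 sham arrays, with blue below and red above that mean and lines between the places in the particle. Banding arrays are blue in most rows. The rows of Psmb8, Psmb9 and Psmb10 lie above the sham mean on banding replicates 1 to 4, less far on replicate 4. On replicate 5 only Psmb8 of these lies above it.

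Activators bind the end of the barrel in place of the regulatory particle, and all 3 measured were lower. Psme1 encodes a subunit of the interferon-inducible PA28 ring. It had 11.45, 11.14, 11.32, 10.76 and 10.88 in banding, and 12.08, 12.30, 12.38 and 12.02 in sham. This was the largest fall of the 42 genes, at 2.12-fold (-1.08 ± 0.16, adjusted p = 0.00121). Psme3, the nuclear PA28 subunit, had 9.11, 8.76, 8.66, 8.81 and 8.85 in banding, and 9.78, 9.58, 9.85 and 9.53 in sham. It was 1.80-fold lower (-0.85 ± 0.11, adjusted p = 0.000544), and its second probe set above the dim level gave -0.67. Psme4, the large single-chain activator PA200, had 13.10, 12.81, 13.06, 13.05 and 13.16 in banding, and 13.36, 13.29, 13.32 and 13.38 in sham (-0.30 ± 0.07, adjusted p = 0.00927). No banding array of an activator reached the lowest sham array.

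The immunoproteasome genes did not share the fall. Psmb8 had 9.10, 9.29, 9.25, 8.76 and 8.63 in banding, and 8.29, 8.61, 8.73 and 8.52 in sham. The difference of 0.47 ± 0.17 just missed the threshold (adjusted p = 0.059, 95% interval 0.08 to 0.86), and over the alternatives its adjusted p ran from 0.0238 to 0.159. It passed without banding replicate 5 (0.56, adjusted p = 0.0244) and when genes dim in both groups were left out (adjusted p = 0.0238). Psmb10 had 9.93, 10.05, 9.74, 9.61 and 9.33 in banding, and 9.47, 9.39, 9.64 and 9.37 in sham (0.27 ± 0.15, adjusted p = 0.223, 95% interval -0.08 to 0.61). Without banding replicate 5 it passed (0.37, adjusted p = 0.0443). With single arrays left out Psmb10 ran from 0.19 to 0.37, with adjusted p up to 0.389. Psmb9 had 7.58, 7.92, 7.65, 7.37 and 6.99 in banding, and 6.72, 7.35, 7.36 and 7.46 in sham (0.28 ± 0.22, adjusted p = 0.428, 95% interval -0.25 to 0.80). With single arrays left out Psmb9 ran from 0.11 to 0.41, with adjusted p from 0.177 to 0.792. In all 3 genes the groups overlapped, and banding replicate 5 was the lowest of its group. The intervals of Psmb9 and Psmb10 include 0, and all 3 reach above 0.5 log2 units.

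Because each inducible subunit takes the place of a constitutive one, the change of each pair was compared within arrays. Psmb8 minus Psmb5 was -2.32, -1.97, -1.97, -2.71 and -2.81 log2 units on the banding arrays, and -3.46, -3.20, -3.25 and -3.22 on the sham arrays. The difference between groups was 0.92, or 1.90-fold. Psmb9 minus Psmb6 was -4.28, -3.82, -4.13, -4.49 and -4.93 in banding, and -5.71, -5.31, -5.26 and -5.03 in sham, a difference of 0.999. Psmb10 minus Psmb7 was -2.43, -2.02, -2.52, -2.66 and -3.09 in banding, and -3.30, -3.34, -3.18 and -3.30 in sham, a difference of 0.74. In each of the 3 pairs all 5 banding arrays lay above all 4 sham arrays. The exact permutation test gave p = 0.0159 for each pair, two-sided, the smallest that these group sizes allow, and 0.0159 after adjustment over the 3 pairs. The members of a pair therefore changed unequally. Each pair difference holds the fall of the constitutive gene (-0.45 for Psmb5, -0.72 for Psmb6 and -0.47 for Psmb7), whose groups were already separate. The inducible genes Psmb8, Psmb9 and Psmb10 differed by 0.47, 0.28 and 0.27 and did not pass. Of all single genes, 36.7% were separate in either direction, and no such share was counted for pairs of genes. The levels of different probe sets cannot be set against each other, so these values give no share of immunoproteasome.

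**Figure D3:**
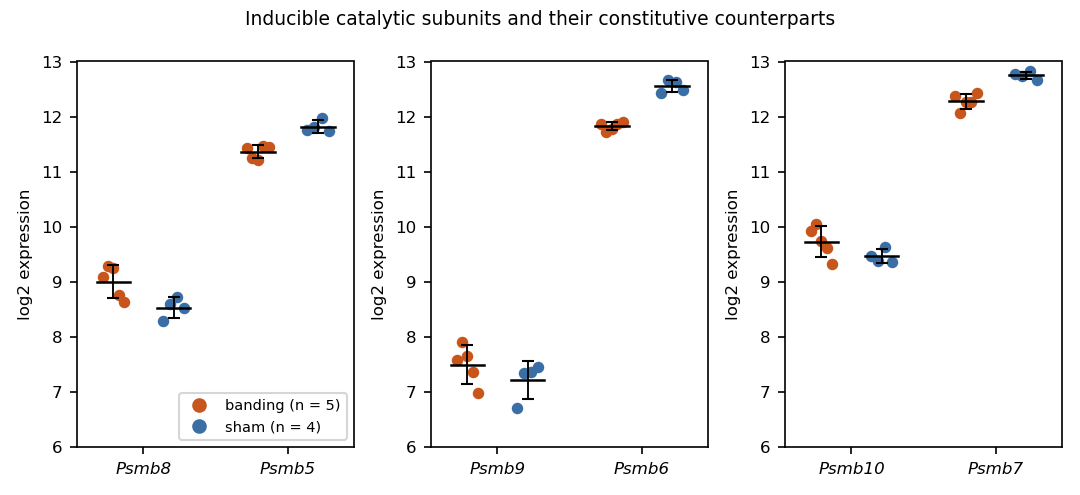
Log2 expression of each inducible catalytic subunit (left in each panel) and the constitutive subunit whose place it takes (right), with a point per array, the mean as a bar and the SD as whiskers, for banding (5 arrays) and sham (4 arrays). The constitutive genes are lower in banding with no overlap, while the inducible genes overlap between groups.

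Leukocytes express immunoproteasome subunits at a high level, and leukocyte markers moved with these pairs. All 6 general leukocyte markers were higher in banding, with a median of 1.62 log2 units, and the log2 of their summed level was 12.68 to 13.52 in banding and 11.14 to 11.56 in sham. Of 8 macrophage markers, 7 were higher and 1, Mrc1, did not pass, and their summed level was 13.39 to 13.72 in banding and 12.56 to 12.77 in sham on the same scale. All 8 markers of T and NK cells were dim in both groups, as were 3 of 4 B cell markers and 3 of 4 dendritic cell markers. The summed level of T and NK cell markers was 5.50 to 6.88 in banding and 5.50 to 5.88 in sham. That of B cell markers was 6.99 to 9.65 in banding and 6.84 to 7.85 in sham, and that of dendritic cell markers was 7.60 to 7.92 in banding and 7.05 to 7.22 in sham. Of 6 endothelial markers, 4 were higher, with a summed level of 12.16 to 12.56 in banding and 11.92 to 12.16 in sham, and 6 of 7 fibroblast markers were higher, at 15.95 to 16.34 in banding and 14.33 to 14.42 in sham. As background for these counts, 18.4% of all genes were higher, and 29.8% of genes not dim in both groups. The part of leukocytes and of the other cell types in the unequal change of the pairs was not tested.

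The genes that the immunoproteasome works with were then read from the same fit. Class I antigen processing had 8 of 15 genes higher (53.3%) and 0 lower, and its median difference was 0.49. Beside this, 18.4% of all genes were higher, and 29.8% of genes not dim in both groups. The smallest p-values belonged to genes with wider roles. Ifi30, a lysosomal thiol reductase that also serves class II presentation, had 9.68, 10.17, 10.04, 9.72 and 10.12 in banding, and 8.09, 8.30, 8.18 and 8.27 in sham (1.73 ± 0.12, adjusted p = 5.62e-05). Pdia3 (1.04 ± 0.08, adjusted p = 6.66e-05) and Sec61b (1.18 ± 0.10, adjusted p = 0.000115) encode a folding enzyme and a translocon subunit of the endoplasmic reticulum. B2m, the light chain of class I molecules, had 14.05, 14.29, 14.28, 14.04 and 13.93 in banding, and 13.20, 13.32, 13.33 and 13.49 in sham (0.78 ± 0.09, adjusted p = 0.000425). The groups were separate in each of these genes, which were named for their small p, and in this direction in 17.4% of all genes. The interferon response had 6 of 19 genes higher (31.6%) and 3 lower (15.8%), with a median difference of 0.12. Of all genes, 18.4% were higher and 20.0% lower. Among genes not dim in both groups these shares were 29.8% and 32.2%, so the higher share of the list was near that background. Irf8 (1.77 ± 0.21, adjusted p = 0.000472), Ifngr1 (0.60 ± 0.07, adjusted p = 0.000552) and Irf7 (1.49 ± 0.19, adjusted p = 0.000674) rose, and Ifngr2 fell (-0.98 ± 0.13, adjusted p = 0.000665). The receptor chains for interferon gamma thus changed in opposite directions. Ifng itself was at the floor on every array, and Irf1, chosen after its value was seen, differed by 0.01 ± 0.19 (adjusted p = 1).

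Promoter sequences are shown for 3 members with large falls in the core and activators, and for 2 inducible subunits that did not fall. RefSeq windows of build GRCm38.p6, from 250 bases before to 50 after the start, were available for 35 of the 42 genes. Psmb9 and Tap1, which encodes a subunit of the peptide transporter, lie head to head on chromosome 17 with 225 bases between them, and their windows share 275 bases. Tap1, chosen for this position after its value was seen, had 6.55, 7.12, 6.38, 6.00 and 5.86 in banding, and 4.51, 5.35, 5.54 and 4.94 in sham (1.30 ± 0.31, adjusted p = 0.0127), while Psmb9 did not pass. Whether these neighbours differ in their change was not tested. Psmb8 follows 969 bases after Tap1. Capitals mark every match on either strand to 5 motifs, which are TGANNNNGC, CCAAT, TTCNNNGAA, the interferon-stimulated response element core (GAAA, any 2 bases, GAAA) and the NF-kappa B site (GGGA, any 4 bases, CC).
Psmb6, chr11:70525107-70525406, plus strand: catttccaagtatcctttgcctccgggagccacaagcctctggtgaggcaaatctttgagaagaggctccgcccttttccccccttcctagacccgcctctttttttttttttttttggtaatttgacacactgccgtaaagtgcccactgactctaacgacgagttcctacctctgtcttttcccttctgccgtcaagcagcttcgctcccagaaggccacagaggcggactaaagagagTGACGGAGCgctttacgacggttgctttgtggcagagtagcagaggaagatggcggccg
Psmb3, chr11:97703184-97703483, plus strand: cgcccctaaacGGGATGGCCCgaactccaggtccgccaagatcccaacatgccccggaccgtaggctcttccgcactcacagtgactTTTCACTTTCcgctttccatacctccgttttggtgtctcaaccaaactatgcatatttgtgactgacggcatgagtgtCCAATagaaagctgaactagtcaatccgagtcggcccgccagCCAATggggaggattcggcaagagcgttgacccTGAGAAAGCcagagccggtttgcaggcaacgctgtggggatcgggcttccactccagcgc
Psme1, chr14:55578244-55578543, plus strand: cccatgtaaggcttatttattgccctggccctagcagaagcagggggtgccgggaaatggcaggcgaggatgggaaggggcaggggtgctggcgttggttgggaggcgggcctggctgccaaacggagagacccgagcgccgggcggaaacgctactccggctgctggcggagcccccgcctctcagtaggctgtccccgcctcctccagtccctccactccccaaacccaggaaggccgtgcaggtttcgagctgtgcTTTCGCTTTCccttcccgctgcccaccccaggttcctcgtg
Psmb8, chr17:34197945-34198244, plus strand: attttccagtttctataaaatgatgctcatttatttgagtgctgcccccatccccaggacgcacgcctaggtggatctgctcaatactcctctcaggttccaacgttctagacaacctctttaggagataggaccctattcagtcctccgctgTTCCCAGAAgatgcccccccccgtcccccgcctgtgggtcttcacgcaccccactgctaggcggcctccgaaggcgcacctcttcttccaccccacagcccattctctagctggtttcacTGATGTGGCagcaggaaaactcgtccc
Psmb9, chr17:34187281-34187580, minus strand: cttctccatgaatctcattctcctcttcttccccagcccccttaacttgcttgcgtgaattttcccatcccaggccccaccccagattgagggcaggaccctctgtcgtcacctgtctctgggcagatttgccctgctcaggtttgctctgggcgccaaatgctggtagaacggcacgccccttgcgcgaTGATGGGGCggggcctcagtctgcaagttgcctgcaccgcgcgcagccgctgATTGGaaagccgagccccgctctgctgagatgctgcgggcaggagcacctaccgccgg

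TGANNNNGC was searched as a loose form of the core of the antioxidant response element, which NFE2L1 and related factors bind. The base after TGA was left free, so a match need not be such an element. It was found in the windows of 20 of 35 members (57.1%), against 45.0% of the 27025 genes with a window. Among the windows shown, Psmb6 holds TGACGGAGC at -9 from the start, Psmb3 holds TGAGAAAGC at -10, Psmb9 holds TGATGGGGC at -60, and Psmb8 holds TGATGTGGC at 23, while Psme1 holds no match. CCAAT, the box of the factor NF-Y, was found in 14 of 35 members (40.0%) and 41.1% of all genes. The core of the interferon-stimulated response element was found in 4 of 35 members (11.4%), namely Psmb3, Psmd4, Psmd9 and Psme1, and in 3.99% of all genes. Psme1, the member with the largest fall, and Psmb3 thus hold this match, while Psmb8 and Psmb9 do not. TTCNNNGAA, a STAT site that reads the same on both strands, was found in Psmb8 (TTCCCAGAA at -97) and Psmd2 (5.71% of members, against 9.55% of all genes). The NF-kappa B site was found in 9 members (25.7%) and 22.9% of all genes. A match describes the letters only, and its absence says nothing about a factor.

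Genes that build or regulate the proteasome were read from the same fit. Among 23 partner genes, 13 fell (56.5%), 1 rose (4.35%) and 9 did not pass, and the median difference was -0.29 log2 units. Of all genes, 20.0% were lower and 18.4% higher. Among genes not dim in both groups, as all 23 partners were, these shares were 32.2% and 29.8%. Nfe2l1 encodes a transcription factor that raises proteasome gene expression when proteasome activity is low. It had 9.62, 9.37, 9.40, 9.30 and 9.20 in banding, and 10.18, 10.39, 10.35 and 10.40 in sham, a difference of -0.95 ± 0.09 (adjusted p = 0.000165). The core assembly chaperone Psmg4 had 6.27, 5.82, 5.82, 5.95 and 5.75 in banding, and 7.26, 7.42, 7.91 and 7.48 in sham (-1.59 ± 0.16, adjusted p = 0.000206), a larger difference than that of any of the 42 genes. Psmg1, another core chaperone, fell by 0.98 ± 0.10 (adjusted p = 0.000199), and Akirin2, which in human cells brings proteasomes into the nucleus, by 0.30 ± 0.03 (adjusted p = 0.000306). All 4, named for the smallest p of the list, were lower and separate between groups, as were 19.3% of all genes. The other core chaperones, given here although outside the rule for named genes, were lower for Psmg2 (-0.39 ± 0.07, adjusted p = 0.00422) and Pomp (-0.31 ± 0.09, adjusted p = 0.0288), while Psmg3 did not pass (-0.05 ± 0.07, adjusted p = 0.617). Ubqln2, a ubiquitin shuttle, was the gene that was higher (0.52 log2 units, adjusted p = 0.0011), and is named for being the only one.

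Among 24 genes of the ubiquitin system, muscle ligases included, 13 fell (54.2%), 4 rose (16.7%) and 7 did not pass, and the median difference was -0.30. The background was the same 20.0% and 18.4% of all genes, and 32.2% and 29.8% of genes not dim in both groups. The ligase Huwe1 had 9.95, 9.86, 9.86, 9.73 and 9.84 in banding, and 10.27, 10.43, 10.37 and 10.39 in sham (-0.52 ± 0.05, adjusted p = 0.000158). Stub1, a ligase that works with chaperones, fell by 0.57 ± 0.07 (adjusted p = 0.000418), and the conjugating enzyme Ube2b by 0.55 ± 0.07 (adjusted p = 0.000718). The ligase Itch rose by 0.46 ± 0.05 (adjusted p = 0.000305). The atrophy ligases Trim63 (-0.40 ± 0.14, adjusted p = 0.0538) and Fbxo32 (-0.71 ± 0.28, adjusted p = 0.0862), chosen after their values were seen, did not pass. Fbxo32 spread widely in banding, at 10.68, 10.72, 10.79, 10.04 and 9.48, against 10.98, 11.06, 11.09 and 11.10 in sham.

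**Figure D4:**
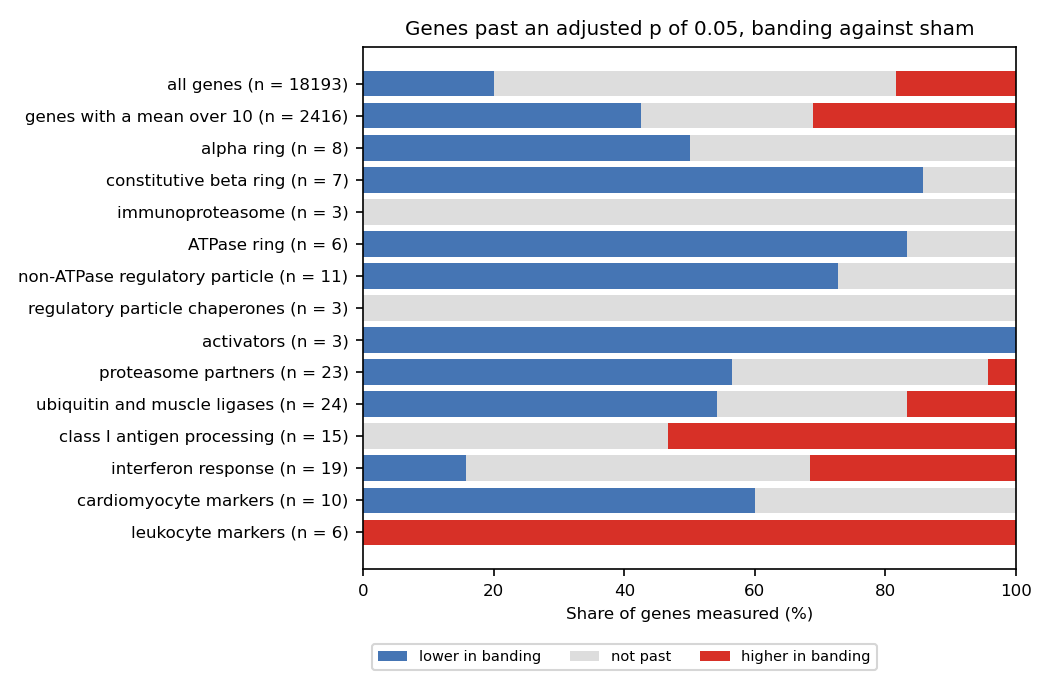
Share of genes in each list that were lower (blue), not past an adjusted p of 0.05 (grey) or higher (red) in banding, in percent of the genes measured, with all 18193 genes and the 2416 genes with a mean over 10 log2 units on top. Constitutive subunits and activators are mostly blue, the immunoproteasome is grey, and class I antigen processing and leukocyte markers are red and grey or red.

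The 2 genes that the symbol rule finds without being part of the particle behaved as follows. Psmc3ip, which encodes a meiotic recombination factor named for its binding to Psmc3, had 5.54, 5.61, 5.90, 5.43 and 5.90 in banding, and 6.53, 6.40, 6.00 and 6.56 in sham (-0.70 ± 0.15, adjusted p = 0.00754). Psme3ip1, named for its binding to Psme3, did not pass (-0.14 ± 0.07, adjusted p = 0.175).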

How the data were processed

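Right ventricular RNA was measured on one-colour Affymetrix arrays. The deposited table holds one log2 value for each probe set and array. Of the steps that made it, RMA and GCRMA, which correct background and normalise, are named in the submitters' processing notes. Which of them was applied, and whether probe sets were filtered, is not stated there. That the scale is log2 was judged from its range, and no further transformation was made.

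Of 45101 probe sets, 64 controls, 9160 with no gene and 932 with several genes were left out. Each of the 18193 genes was read from its brightest probe set, by the mean of the 9 arrays. Genes with group means under 4.198, the floor plus 2 log2 units, are called dim. The fit of banding against sham used limma 3.58.1 (R 4.3.3) with lmFit and eBayes, two-sided, Benjamini-Hochberg adjusted over all genes, and no covariate, since the labels give no batch. The fit was tested on simulated data. Pairs of subunits were compared by exact permutation in scipy 1.17.1. The number of arrays limits the precision.

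Members and lists were chosen with earlier results of these data known. Named with values were the immunoproteasome genes, their counterparts, the activators, in each ring or subcomplex the 3 members with the smallest p and the one with the largest, and up to 4 genes per other list. In genes named for the smallest p, separation of the groups follows largely from that choice. List genes without a probe set of their own were not analysed here.

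The replicate numbers shared by the groups were checked as pairs. Deviations from the group means of same-numbered arrays correlated between -0.03 and 0.04, so no pairing by number shows in these values. This cannot tell whether same-numbered samples were matched in the experiment.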

Additional observations from a re-analysis of the deposited data

Results flagged for a closer look

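Across the 44 genes and the 3 subunit pairs, 92 groups of arrays with any spread were searched for an array far from the others of its group, and 5 held one, where chance gives about 1 in 20. Psmb2 was 10.40 on banding replicate 1, against 10.05 to 10.10 on the other banding arrays. Psmb9 was 6.72 on sham replicate 1, against 7.35 to 7.46 on the other sham arrays. Psmd14 was 11.03 on sham replicate 4, against 11.10 to 11.11. Psmb11, dim in both groups, was 2.63 on banding replicate 3 and 2.20 on the others. Psma8, also dim, was 2.35 on sham replicate 2 and 2.82 on the others.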

How the results depend on the processing

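Of the 26 genes called lower, 23 stayed lower and past the threshold under every alternative that gave a value (up to 22 for each), 3 (Psmb1, Psmb5 and Psmc6) missed it under some, and 0 changed direction. The number lower ran from 23 to 29, and from 25 to 27 with single arrays left out. The number higher became 1 with array weights, with either mean of probe sets, without genes dim in both groups and without probe sets ending in _x_at, _s_at or _a_at, and 0 to 2 with single arrays left out. The mean over probe sets that are not dim was added after seeing the data. The number of all genes past the threshold was 10960 when 34945 probe sets were tested singly and 13528 with arrays centred on the medians of these probe sets. That centring shifts every difference by -0.13, also that of the 2854 genes at one level on all arrays. Of the genes that did not pass, 10 of the 42 changed sign under some alternative. With the mean of all probe sets Psma3 was 0.49 (adjusted p = 0.0247), Psma5 -0.084, Psmb4 -0.068, Psmd6 -0.19 and Psmd13 -0.022, and over probe sets that are not dim Psma3 was 0.49, Psma5 -0.085, Psmb4 -0.068 and Psmd6 -0.19. Without probe sets ending in _x_at, _s_at or _a_at, Psma3 was 1.12, Psma5 -0.084, Psmb4 -0.28, Psmc4 -0.11, Psmd6 -0.44 and Psmd13 -0.56, where the probe sets left for Psma5 and Psmd13 were dim in both groups. With centred arrays Psma5 was -0.093, Psma8 -0.010, Psmb11 -0.040, Psmd5 -0.11 and Psmd6 -0.068. Psmd5 was -0.0018 and Psmd10 0.020 with array weights, Psmd5 was -0.0074 with the hepatocyte index, and without sham replicate 4 and banding replicate 5 Psmd5 was -0.01 and Psmd6 -0.026. Leaving out single arrays gave -0.054 to 0.063 for Psmd5, -0.049 to 0.043 for Psmd10 and 0.0063 to 0.11 for Psmd6. The cause of these changes was not tested.

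The 3 pair differences kept their direction under every alternative run, from 0.69 to 1.06 for Psmb8 minus Psmb5, from 0.87 to 1.25 for Psmb9 minus Psmb6 and from 0.61 to 0.87 for Psmb10 minus Psmb7. Their exact p was at most 0.0571, the smallest possible with 4 banding and 3 sham arrays. Psmb8 minus Psmb5 could not be computed without probe sets ending in _x_at, _s_at or _a_at. With the replicate number as a block, 24 members were lower and 1, Psmb8, was higher, and 5277 genes passed. Psmb1 and Psmb5 (adjusted p = 0.054 for Psmb5) lost the call in this fit. No pairing by number shows in the values, but a match of same-numbered samples cannot be told from them.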

Other observations

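The banding arrays differed among themselves in a set of related genes, all chosen after their values were seen. Psmb8, Psmb9, Psmb10, Psme1, Tap1 and Irf1 were each lower on banding replicates 4 and 5 than on replicates 1 to 3. Irf1, a transcription factor of the interferon response, stood at 8.29, 8.26, 8.01, 7.78 and 7.61 on banding replicates 1 to 5, against 7.60, 7.91, 8.21 and 8.19 on the sham arrays. Psmc4 and Psmd8 had the opposite order, with their highest values on banding replicates 4 and 5. The labels give no difference between these arrays, and no group was formed from them.

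Psme1 and the inducible catalytic subunits, all known as interferon-responsive genes, stood apart in their group difference. Psme1 was lower by 1.08 log2 units, while Psmb8, Psmb9 and Psmb10 differed by 0.47, 0.28 and 0.27 and did not pass. The difference between Psme1 and these genes was not tested.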
